A study of Mus musculus with 2 samples.

Results

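The genes described here encode the proteins of the cytosolic ribosome. They were measured in cells of the superficial zone (SFZ) of mouse articular cartilage, the layer of flattened cells that faces the joint space. The genes were chosen by symbol, as the Rpl and Rps genes with a number in the deposited table, which gave 79 genes of 15719 listed with a WT value. Of these, 48 encode proteins of the large subunit (Rpl) and 31 of the small subunit (Rps). The 3 P-stalk genes Rplp0, Rplp1 and Rplp2, and Rpsa, Fau and Rack1, have symbols of another form and were treated in a separate list of 7 genes.

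Both libraries were made from C57BL/6 animals of postnatal day 5. One was from wild-type (WT) mice and the other from mice without Prg4 (Prg4KO), the gene for lubricin, the joint lubricant that SFZ cells secrete. Cartilage from femur and tibia was digested with trypsin (0.25%, 1 h) and collagenase (173 U/mL, 1.5 h), the freed cells were put on fibronectin-coated dishes, and their polyA RNA was sequenced. The sources used here do not give the knockout allele, the number or sex of the animals, or how long the cells were cultured. With 1 library per genotype there was no replicate check, and every comparison below describes these 2 libraries without a test. In the deposited table the Prg4KO values stand beside the wrong gene after row 20, so every Prg4KO value here rests on a re-pairing by row order and transcript length, which placed all 79 genes at a probability of at least 0.9998. Prg4 itself had 54559 expected counts (the estimated reads of a gene) in WT and 6.15 in Prg4KO.

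Each ribosome holds a single copy of nearly every ribosomal protein, so cells make these proteins in matched amounts. Their mRNAs are short, very abundant and long-lived. In vertebrates they typically begin with a 5′ terminal oligopyrimidine (TOP) tract, a run of C and T from the first base, through which the kinase mTOR and the RNA-binding protein LARP1 set their translation. In growing cartilage, ribosome supply matters because chondrocytes secrete large amounts of collagen and proteoglycan.

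Start site sequences are shown for genes with and without such a run at the annotated start, and were taken from the RefSeq promoter table for GRCm38.p6, where 60 of the 79 genes matched. Each line gives 15 bases before and 15 bases from the annotated start, on the gene's strand. Capitals mark a pyrimidine tract of at least 5 bases that begins with C within 10 bases of the start, as far as it lies in the window. The first genes are shown for their long tracts. Rpl22l1 and Rps12 were among the members with the highest Prg4KO to WT ratios, and Rps26, Rpl24 and Rpl41 among those with the lowest.
Rpl35 (chr2:39005117-39005146, minus strand): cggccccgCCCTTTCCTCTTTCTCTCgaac
Rpl7a (chr2:26910792-26910821, plus strand): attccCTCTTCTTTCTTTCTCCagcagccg
Rpl15 (chr14:18270972-18271001, minus strand): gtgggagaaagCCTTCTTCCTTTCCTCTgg
Rps27 (chr3:90213634-90213663, minus strand): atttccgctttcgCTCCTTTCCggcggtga
Rpl22l1 (chr3:28805493-28805522, plus strand): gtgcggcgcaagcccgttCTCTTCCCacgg
Rps12 (chr10:23787195-23787224, minus strand): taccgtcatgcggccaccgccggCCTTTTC
Rps26 (chr10:128626492-128626521, minus strand): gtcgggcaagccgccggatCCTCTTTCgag
Rpl24 (chr16:55966260-55966289, plus strand): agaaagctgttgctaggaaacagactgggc
Rpl41 (chr10:128549154-128549183, minus strand): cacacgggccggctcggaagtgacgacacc

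Such a tract was found at 39 of the 71 annotated starts of the 60 genes (54.9%), against 30.7% of all 32851 starts in the table. A tract of at least 8 bases was found at 33.8% of the members' starts and at 8.11% of all starts. Read on the other strand, a tract of at least 5 bases stood at 22.5% of the members' starts and 34.9% of all starts. The letters CTTTCC, which can lie inside such a tract, were present on either strand of the window from 250 bases before to 50 after the start for 49.3% of the members' starts and 26.6% of all starts. CGGAAG, a core that ETS transcription factors bind, was present for 62.0% of the members' starts, 32.7% of those of the other genes measured here and 16.9% of all starts. ATGGCG, part of the YY1 motif, was present for 32.4%, 16.4% and 8.93%. The E-box CACGTG was present for 11.3%, 10.6% and 7.15%, and TATAAA for 9.86%, 6.84% and 13.6%. These are matches of letters, and an annotated start can lie some bases away from the start used in these cells.

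Ribosomal protein transcripts took up a large part of both libraries. Summed over the 79 genes, FPKM (fragments scaled by transcript length and library size) was 15.5% of the WT total and 19.6% of the Prg4KO total. In expected counts, which are not scaled by length, the share was 4.80% in WT (95% Wilson interval 4.79% to 4.81%, counting error only) and 6.73% in Prg4KO (6.72% to 6.74%). In bulk RNA, fewer cells of a type and less RNA per cell cannot be told apart. The members' median FPKM was 889 (WT) and 1235 (Prg4KO). In the WT library 46 of them stood among the 100 genes with the highest FPKM.

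Single members ranged widely in level. Rpl41, which encodes a very small basic protein of the large subunit, had the highest FPKM, with 2868 (WT) and 3423 (Prg4KO). Rps26, a small subunit protein at the mRNA exit channel, followed with 2452 and 2388. Rps2, a core protein of the small subunit, had 1810 and 2339, Rpl28 had 1712 and 2228, and Rpl23a, at the mouth of the peptide exit tunnel, had 1552 and 1856. At the low end stood mostly paralogues, with Rpl32l at 0.77 and 1.64, Rpl39l at 10.7 and 19.4, Rpl7l1 at 45.6 and 64.0 and Rps27l at 52.0 and 77.3. The order of levels was nearly the same in both libraries, with a Spearman's rho of 0.97 across the 73 members other than paralogues, which are genes and not independent replicates.

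**Figure D1:**
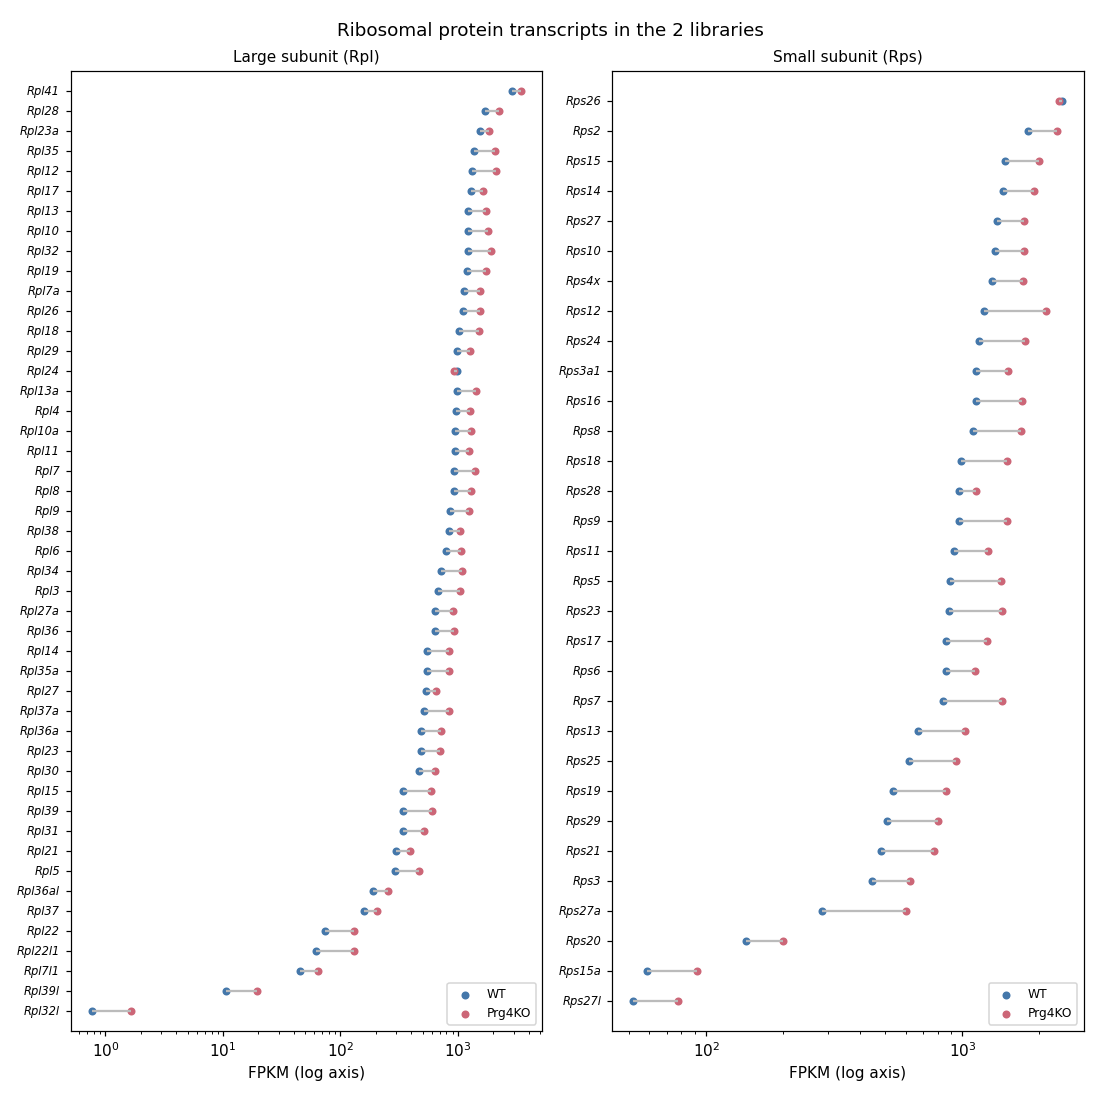
FPKM of 78 of the 79 ribosomal protein genes (log axis) in the WT library (blue) and the Prg4KO library (red), large subunit on the left and small subunit on the right, ordered by WT FPKM. Each point is 1 library and the grey line joins the 2 values of a gene; the red point lies to the left of the blue one only for Rpl24 and Rps26.

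Part of the spread in FPKM went with the gene model behind it. Of the 73 members other than paralogues, 7 had a deposited transcript length above 1800 bases: Rpl15, Rpl21, Rps3, Rpl5, Rpl22, Rps20 and Rps15a. Their WT FPKM lay between 58.6 and 444, with a median of 293, against a median of 955 for the other 66. Their WT expected counts lay between 3479 and 17972, with a median of 11941, against 14242 for the other 66, and the ranges overlapped. Rps15a, a small subunit protein, had 6593 counts over a deposited length of 5158 bases, which gave an FPKM of 58.6. The GENCODE M21 annotation of the same assembly lists 6 coding transcripts of Rps15a between 250 and 5179 bases. Which of them these cells used was not tested. The length enters both libraries alike for a gene with 1 transcript, so it does not change a ratio between them.

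**Figure D2:**
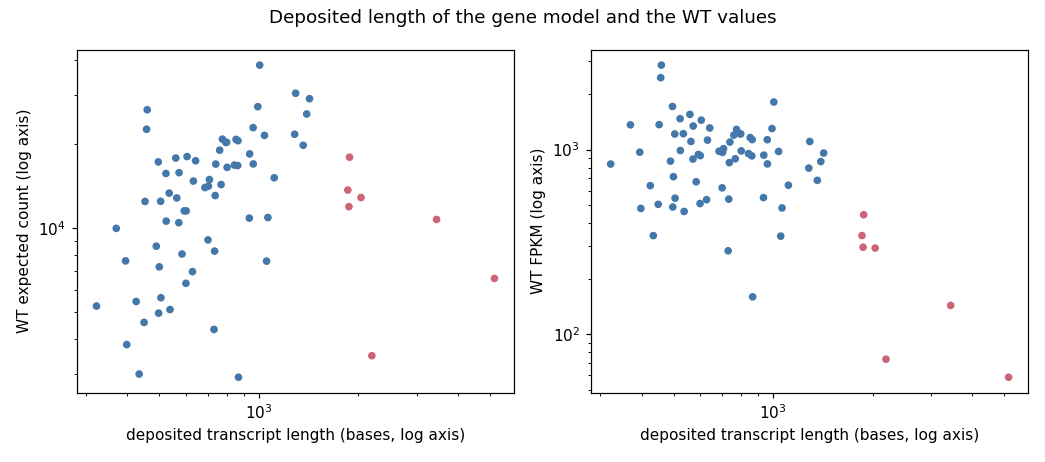
WT expected count (left) and WT FPKM (right) of the 73 members other than paralogues against the deposited transcript length, all on log axes, 1 point per gene. The 7 genes above 1800 bases (red) lie within the counts of the others (blue), and their FPKM is at most 444.

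The ribosomal protein genes were higher together in the Prg4KO library. The log2 ratio of Prg4KO to WT FPKM, with 1 added to each, was above 0 for 76 of the 78 members with an FPKM of at least 5 in either library. In the background, 69.0% of 7366 genes so measured were above 0. The members' median was 0.53, a 1.45-fold higher level, with quartiles at 0.41 and 0.62. Erythroid marker genes were higher too, at a summed FPKM of 1648 (WT) and 2675 (Prg4KO), and their part in this result was not tested. Over genes with an FPKM of at least 5 in both libraries, the median log2 ratio was 0.13, and values below are given relative to that median where stated.

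Relative to the all-gene median the members' median was 0.40, a ratio of 1.32, and 75 of 78 lay above it, against 52.1% of all genes measured. A value of at least 0.25 was reached by 62 of 78 members, and by 20.2% of all genes. Rescaling the libraries in 5 other ways, each with a single factor that cancels from the relative values apart from the pseudocount and filter, left 75 of 78 members above 0 in place of 76. Counting error was small at this depth, with 2912 to 38498 WT counts per member other than paralogues. The exact 95% interval of the count ratio lay above the all-gene median ratio of 1.11 for 75 of 78 members and below it for 3.

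**Figure D3:**
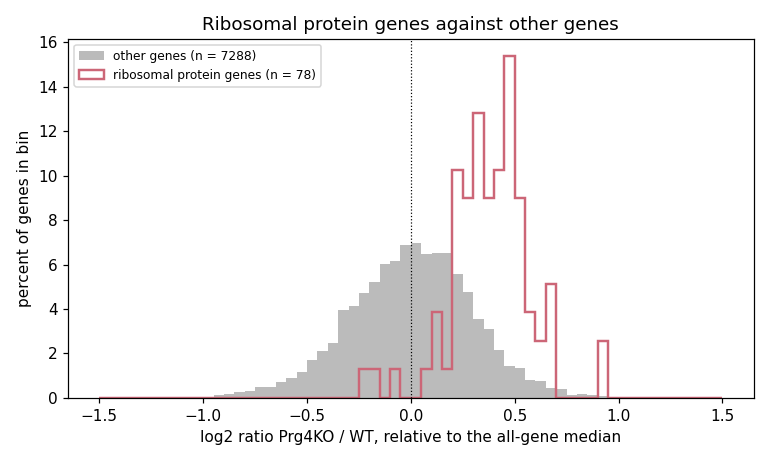
Distribution of the log2 ratio of Prg4KO to WT FPKM relative to the all-gene median (dotted line), as percent of genes per bin, for the 78 ribosomal protein genes (red outline) and the 7288 other genes (grey); values beyond 1.5 stand in the end bins. The ribosomal protein genes centre on 0.40 and the other genes on 0.01.

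Both subunits showed this shift. The 47 large subunit members had a median log2 ratio of 0.53, with quartiles at 0.40 and 0.60, and 45 lay above the all-gene median. The 31 small subunit members had a median of 0.59, with quartiles at 0.42 and 0.66, and 30 lay above it. The 2 ranges overlapped nearly in full. The members sit on 19 chromosomes, with 13 on chromosome 7 and 4 on the X chromosome (Rps4x, Rpl10, Rpl36a and Rpl39). The median relative to all genes was 0.44 for the X-linked members and 0.40 for the autosomal ones.

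Log2 ratios also went with transcript length and GC content, and ribosomal protein mRNAs are short. The members' median deposited length was 708 bases, against 2571 for all genes measured. Spearman's rho between log2 ratio and length was -0.30 across all genes measured and -0.00085 across the 78 members; such values across genes carry no p. Other genes of at most 1553 bases, the length under which 9 in 10 members fall, centred on 0.14 on the relative scale, and 67.6% of these 1597 genes lay above the all-gene median. After a trend with length alone was removed, the members' median was 0.21 and 68 of 78 lay above the median. After a trend with length and GC content, which held 27.0% of the variance across genes, the median was 0.20 and 67 of 78 lay above. For comparison at like abundance, 74 other genes reached 540 FPKM in WT cells, and their median was -0.07, with 33 on the higher side.

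**Figure D4:**
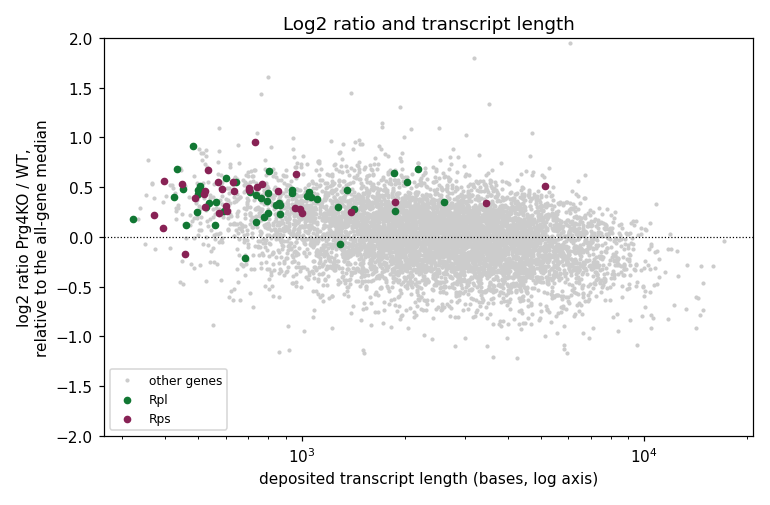
Log2 ratio of Prg4KO to WT FPKM relative to the all-gene median (dotted line) against deposited transcript length (log axis), 1 point per gene, for large subunit genes (green), small subunit genes (purple) and other genes (grey). Prg4 lies outside the axis; the members stay near 0.40 at all lengths while the other genes slope downwards.

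Among single members, Rps27a and Rpl22l1 had the highest ratios, and they were the only 2 of 78 with a log2 ratio of at least 1. In the background, 0.462% of genes measured were at least that much higher, 0.109% as much lower and 0.57% either way. Rps27a, at chr11:29545842-29548040 in the GRCm38 assembly, encodes ubiquitin fused to the small subunit protein eS31. It had 4323 counts (WT) and 9082 (Prg4KO), at FPKM 283 and 601, which is a log2 ratio of 1.08. Of the 79 members it had the lowest pairing probability, 0.9998. Its count ratio per library total was 2.12 (exact 95% interval 2.05 to 2.20, counting error only). Relative to the all-gene median the value was 0.95, and after the length and GC trend it was 0.72, and no member reached 1 after either adjustment or after any of the 5 rescalings. The rescalings also changed the split of all genes past the limit, from 81.0% higher as deposited to between 41.2% and 58.1%.

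Rpl22l1 is the paralogue of Rpl22, an RNA-binding protein of the large subunit, and in mice loss of Rpl22 raises Rpl22l1. Rpl22l1 had 610 counts (WT) and 1263 (Prg4KO), at FPKM 62.4 and 130 (log2 ratio 1.05, count ratio 2.09, 1.90 to 2.31). Rpl22 had 3479 and 6017 counts, at FPKM 73.4 and 130 (log2 ratio 0.81). Both genes of the pair were higher in the Prg4KO library. Of the counts of the pair, Rpl22l1 held 14.9% in WT (exact binomial 95% interval 13.84% to 16.05%) and 17.3% in Prg4KO (16.5% to 18.2%). Counts are not scaled by transcript length, and in summed FPKM its share was 46.0% in WT and 50.1% in Prg4KO. The longest stretch of identical bases between their transcripts was 26 bases.

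Next in order beside Rpl22 were Rpl39, Rps12, Rpl39l, Rpl15 and Rps7. Rpl39, a small protein in the wall of the peptide exit tunnel, had 342 FPKM (WT) and 604 FPKM (Prg4KO) (log2 ratio 0.82). Rps12 had 1220 and 2126 (0.80), and it encodes a small subunit protein with a part in cell competition in Drosophila. Rpl15, a core protein of the large subunit, had 343 and 586 (0.77). Rps7, which can also bind the p53 regulator Mdm2, had 837 and 1424 (0.77). Rpl37a had 511 and 843 (0.72) and Rps21 481 and 777 (0.69). The counting intervals of Rpl39 and Rps12 overlapped, at 1.69 to 1.85 and 1.71 to 1.78, so their order was not resolved.

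Of 78 members, 3 lay below the all-gene median, Rpl24 and Rps26 the farthest. Rpl24, a large subunit protein at the bridge between the subunits, which is mutated in the Belly spot and tail mouse, had 13983 counts (WT) and 13100 (Prg4KO), at FPKM 980 and 926 (log2 ratio -0.08, count ratio 0.947, 0.924 to 0.9697). Rps26 had 22647 and 21859 counts (log2 ratio -0.04, count ratio 0.975, 0.957 to 0.994). Both had whole counts in both libraries. Just above the all-gene median stood Rps28 at 968 and 1133 (0.23), Rpl41 (0.26), Rpl23a (0.26), Rpl27 at 540 and 656 (0.28) and Rpl38 at 835 and 1035 (0.31). Rpl38 is known for its part in the translation of Hox mRNAs in the mouse. With the joint trend taken out, these last 5 also lay below the all-gene median, at values from -0.21 to -0.04.

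Several members have known roles beside protein synthesis, and their values lay inside the range of the others. Rpl5 and Rpl11 form a particle with 5S rRNA that can bind Mdm2. Rpl5 had 293 FPKM (WT) and 471 FPKM (Prg4KO) (log2 ratio 0.68), and Rpl11 had 942 and 1235 (0.39). Rps6, the substrate of S6 kinase, had 862 and 1122 (0.38). Rps19, the gene most often mutated in human Diamond-Blackfan anaemia, had 536 and 861 (0.68). Rpl3, which lies near the peptidyl transferase centre, had 682 and 1034 (0.60), and Rps14, a protein of the small subunit platform, had 1444 and 1898 (0.39).

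The other paralogues among the members were also higher in the Prg4KO library, as were their partners. Rpl36al held 29.0% of the counts of the Rpl36a pair in WT (exact binomial 95% interval 27.9% to 30.1%) and 27.2% in Prg4KO (26.3% to 28.1%). Rpl7l1, whose protein serves in ribosome assembly, held 12.2% (11.8% to 12.7%) and 11.6% (11.3% to 12.0%) beside Rpl7. Rps27l, a p53 target, held 5.24% (4.83% to 5.69%) and 6.05% (5.65% to 6.46%) beside Rps27. Rpl39l, known from the testis, held 5.71% (4.93% to 6.57%) and 5.83% (5.23% to 6.48%) beside Rpl39. For Rpl39l the intervals overlapped almost in full, so no difference in its share was detectable at this depth. The intervals overlapped in part for Rpl36al, Rpl7l1 and Rps27l too, and a difference in their shares was not tested. These count shares are not scaled by transcript length. In summed FPKM the shares (WT and Prg4KO) were 27.8% and 26.1% for Rpl36al and 4.65% and 4.41% for Rpl7l1. They were 3.68% and 4.26% for Rps27l and 3.04% and 3.11% for Rpl39l. Rpl32l had 9.34 and 19.8 counts and did not reach an FPKM of 5. Of the 6 paralogues and copies on the list that reached an FPKM of 5, 5 lay above the all-gene median, and 1, Rpl22l1, passed the limit of 1. Of all genes measured, 52.1% lay above that median and 0.57% passed the limit. The other paralogues on the list were not analysed here.

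Read sharing touched 17 of the 79 members, whose expected counts were not whole (to 0.005) in at least 1 library. Rps27 shares an identical stretch of 341 bases with the retrocopy Rps27rt, which was listed at 337.5 counts in both libraries. Rpl37rt, a retrocopy of Rpl37, was listed with more counts than Rpl37 itself, at 4437 (WT) and 6605 (Prg4KO) against 2912 and 3715. The split between such copies depends on the counting. Summed with its copy, the count ratio was 1.27 for Rps27 (1.24 to 1.30), 1.42 for Rpl37 (1.38 to 1.46), 1.46 for Rpl31 with Rpl31-ps12 (1.42 to 1.50) and 1.52 for Rpl34 with Rpl34-ps1 (1.48 to 1.57). The 62 members with whole counts centred on 0.39 against all genes, and 59 lay above the all-gene median.

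Ribosomal genes with symbols of another form were also higher. All 7 exceeded the all-gene median, their median was 0.41 relative to it, and 0 of 7 reached a log2 ratio of 1. Of all genes measured, 52.1% lay above the all-gene median and 0.462% reached a log2 ratio of 1. Rplp2, of the P-stalk that recruits elongation factors, had 783 FPKM (WT) and 1388 FPKM (Prg4KO) (log2 ratio 0.83). Rplp1 had 2214 and 3219 (0.54) and Rplp0, often used as a reference gene, 2113 and 2758 (0.38). Fau, encoding a ubiquitin-like fusion with eS30, had 576 and 891 (0.63), and the scaffold Rack1 had 796 and 1208 (0.60). Rpsa had 1183 and 1374 (0.22).

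Other parts of the translation machinery had smaller medians, a difference that was not tested. Of 19 translation factors and other TOP genes, 17 exceeded the all-gene median, against 52.1% of all genes measured. Their median was 0.23 relative to the all-gene median, and 0 passed the limit of 1, against 0.57% of all genes. Eef1a1, which brings tRNA to the ribosome, had 5264 FPKM (WT) and 6554 FPKM (Prg4KO) (log2 ratio 0.32). Tpt1, a growth-associated TOP gene, had 1792 and 3198 (0.83) and the exchange factor subunit Eef1b2 164 and 311 (0.92). Vimentin (Vim) had 1365 and 1600 (0.23). Of 28 ribosome assembly genes measured, 24 exceeded the all-gene median, their median was 0.23, and 0 passed the limit. Among these, the rRNA methyltransferase fibrillarin (Fbl) had 136 and 136 (0.00), Nop56 76.9 and 93.3 (0.28), and Nop10 74.6 and 99.9 (0.42).

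Of 12 genes of RNA polymerase I, which makes rRNA, 11 lay above the all-gene median (median 0.17), against 52.1% of all genes measured. Polr1d had 77.6 and 99.9 FPKM, Polr1c 32.8 and 39.4 and Znrd1 36.0 and 37.7. Polr2k, a subunit shared by the 3 nuclear RNA polymerases, passed the limit, with 36 and 96 counts (log2 ratio 1.23, count ratio 2.69, 1.82 to 4.07). Of all genes measured, 0.57% passed it. Polr2k (3.04 and 8.47 FPKM) and Taf1a (4.88 and 5.94) reached an FPKM of 5 only in the Prg4KO library. They thus entered the list only through the library where they were higher. Of 14 regulators of ribosomal protein synthesis measured, 6 lay above the all-gene median, against 52.1% of all genes, and 0 passed the limit (median -0.03). The 6 included Mlst8 (4.28 and 5.41 FPKM), which reached an FPKM of 5 only in the Prg4KO library. Myc, a transcription factor that drives ribosomal genes, had 176 FPKM (WT) and 168 FPKM (Prg4KO) (log2 ratio -0.07). Eif4ebp1, a translation inhibitor under mTOR, had 279 and 325 (0.22), the mTORC1 component Akt1s1 had 113 and 113 (0.01), and Larp1 had 32.3 and 33.6 (0.06). With the joint trend taken out, medians were 0.20 for members, 0.19 for the 7 other ribosomal genes and 0.17 for RNA polymerase I. They were 0.11 for translation factors and TOP genes, 0.11 for ribosome assembly and -0.02 for the regulators.

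**Figure D5:**
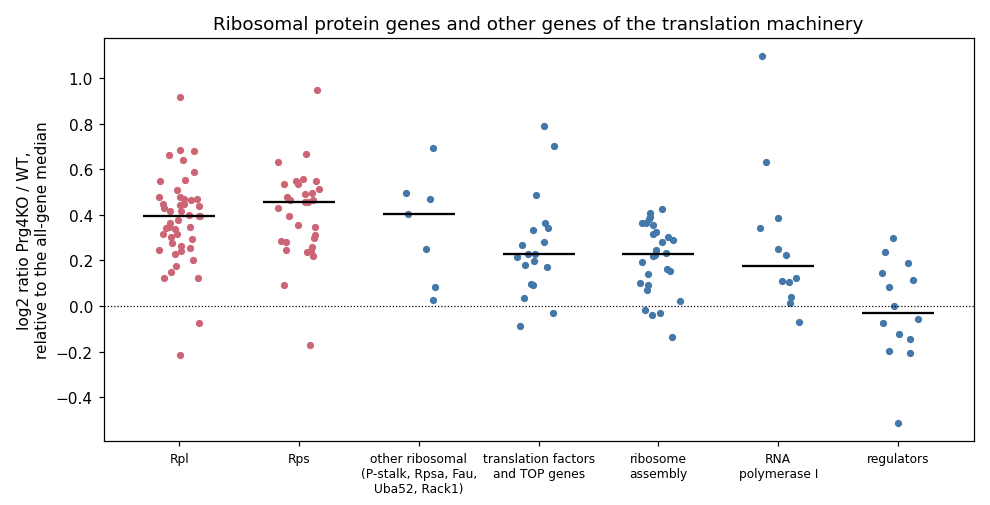
Log2 ratio of Prg4KO to WT FPKM relative to the all-gene median (dotted line) for the large and small subunit genes (red) and for 5 lists of the translation machinery (blue), 1 point per gene, with the list median as a black bar. Before any trend was taken out, the ribosomal protein genes centre near 0.40, translation factors and ribosome assembly at 0.23 and the regulators at -0.03.

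Cell type markers also differed between the libraries. Of 10 superficial zone markers, Prg4 (593), Thbs4 (267), Clu (175) and Tnc (104) had the highest WT FPKM. Htra4 (1.61), Gdf5 (6.72) and Erg (9.78) had the lowest. Summed FPKM of the 10 was 1290 (WT) and 483 (Prg4KO). Without the deleted gene Prg4 the other 9 summed to 697 and 483, with 7 lower and 2, Erg and Htra4, higher in the Prg4KO library. The 9 chondrocyte markers measured summed to 18412 and 20819, most of it from Col2a1 (14594 and 15702). All of them but Acan (527 and 436) were higher in the Prg4KO library. The 6 fibrous tissue markers summed to 19453 and 11247, most of it from Col1a1 and Col1a2. All of them but Dcn (386 and 396) were lower in the Prg4KO library. For scale, FPKM over all genes summed to 429955 (WT) and 475220 (Prg4KO). The 6 erythroid markers, of cells rich in globin mRNA, were all higher in the Prg4KO library and summed to 1648 and 2675. The 4 osteoclast markers measured summed to 165 and 233 and the 5 macrophage markers to 61.8 and 80.0, and all of them were higher in the Prg4KO library. Tendon markers summed to 345 and 332, osteoblast markers to 81.1 and 92.1, endothelial markers to 49.2 and 44.8 and muscle markers to 3.67 and 3.13. The part of these markers' cells in the ribosomal protein shift was not tested.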

How the data were processed

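One table held both libraries. Per the file headers, the deposited values were expected counts (estimated reads per gene) and FPKM, in which the authors adjusted for length and depth. Per the submitters' processing notes the tools were HISAT2, Bowtie2 and RSEM and the build mm10; no version or option is given in the sources used here. Expected counts summed to 21619093 (WT) and 21392574 (Prg4KO).

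After row 20 the Prg4KO values do not stand beside their gene. They were re-paired by row order and effective length (count divided by FPKM) with a pair hidden Markov model, and pairs at a probability of at least 0.95 were used (14909 genes, 94.8%). All 79 members were paired, at 0.9998 or more. Within a pair, effective length differed by at most 0.051% for the 62 measured members with 1 transcript and by at most 1.22% for the 16 with several. Pairing and ratios were tested on simulated data.

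Log2 ratios used a pseudocount of 1 and the 7366 genes that reached an FPKM of 5 in either library; the size limit was a log2 ratio of 1 in either direction. Trends with length and GC content were cubic fits, with GC content from GENCODE M21 transcripts for 99.7% of these genes. Intervals cover counting error only. Named genes were the members at both ends of the ratios and levels, paralogues and, from each list, genes past the limit and the 3 with the highest WT FPKM; members with other known roles, and further list genes, were chosen after their values were seen. Members and lists were chosen with earlier results of these data known. Of the listed genes, snoRNA hosts were not analysed here. Values of 1 member and 1 gene of the other lists, which the naming rule covers, are not reported here; both are counted in the totals. Tools were Python 3.11.15, numpy 2.4.6, numba 0.67.0, scipy 1.17.1 and, for TMM factors, edgeR 4.0.16.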

Additional observations from a re-analysis of the deposited data

How the results depend on the processing

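The members' median relative to all genes was 0.40. It was 0.39 at a pseudocount of 0.1, 0.42 at a pseudocount of 5, 0.39 on counts per library total, 0.39 for members with whole counts, 0.21 once a length trend was taken out and 0.20 once a joint trend with length and GC content was. Under the 5 rescalings it was 0.39, which is no check, since 1 factor per library cancels from relative values apart from the pseudocount and filter. The count above the all-gene median was 75 of 78. It was 68 of 78 once the length trend was taken out and 67 of 78 once the joint trend was. Among the 62 members with whole counts it was 59. Members past the size limit went from 2 to 0 under the 5 rescalings and both trends, and to 1 without the paralogues. All genes past the limit went from 42 to 65 at a pseudocount of 0.1, 14 at 5, 27 without the length trend and 19 without the joint trend. The members' share of summed FPKM was 4.03 percentage points higher in the Prg4KO library. This was 1.93 on counts, 3.99 with pairs within 1% in length, 3.99 without paralogues, 4.46 with the 6 other ribosomal genes, 3.36 for members with whole counts and 4.07 without the 20 most abundant genes. No cause was tested for the trends. Of 402 log2 ratios of 27 named members under alternatives, 230 stayed within the counting interval, and neither member past the limit changed sign. Some other named members did change sign once the length trend was taken out. Among them were Rps28 (0.23 as deposited, -0.24 without the trend), Rpl38 (0.31 and -0.23) and Rpl41 (0.26 and -0.17). No paired analysis was possible because each genotype had 1 library. Depth limits only the scarce paralogues, while the spread between cultures is unknown for all genes.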

Other observations

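Within the ribosomal protein genes, the more abundant members had the smaller ratios. Spearman's rho between WT FPKM and log2 ratio was -0.43 across the 78 members, which are genes that share 2 libraries, and WT FPKM enters both measures. The log2 ratios of the members had an SD of 0.20, against 0.33 for all genes measured, and 66 of 78 lay within 0.25 of the members' median.

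Members with a pyrimidine tract of at least 5 bases at an annotated start had a median log2 ratio of 0.59 (36 genes) and those without one 0.48 (23 genes). Among other genes measured, the medians were 0.15 with such a tract (2196 genes) and 0.14 without one (3722 genes), and 0.13 with a tract of at least 8 bases (625 genes). The Rps27 retrocopy Rps27rt was listed at the same 337.5 counts in both libraries, while Rps27 had 9976 and 12617.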
